A study of Mus musculus with 4 samples.

Results

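The genes described here encode the subunits of the proteasome and its dedicated partners. They were chosen as the rows whose symbol is Psm followed by one of the letters a to g and a number, with at least 40 reads summed over the 4 libraries. Of 48 symbols of that form, 46 met the minimum, among 55401 genes in the table. The other two were Psma8, a testis form of an alpha subunit, with 0 reads in every library, and Psmb11, the catalytic subunit of the thymus proteasome, with 5 reads in all. A count of 0 allows up to 0.0434 CPM (a gene's reads after scaling every library to the same total) over the 4 libraries together. No gene lay near the minimum, since the member with the fewest reads, Psmd10, had 2242 and the one with the most, Psma7, had 46467.

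RNA was sequenced from cultured mouse cells that the labels call female germline stem cells, from the ovary of the C57BL/6 strain. The Control group of 2 libraries received DMSO, the solvent, and the Daidzein group of 2 libraries received daidzein, an isoflavone found in soybeans. Both groups grew in MEM-alpha with fetal bovine serum, LIF, GDNF, bFGF and EGF, and neither dose nor duration is stated in the sources used here. Nothing in the labels says that replicates were grown separately, and the p-values therefore measure the spread between these libraries alone, which may be technical.

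Library totals ran from 16230400 to 18537134 reads, and the 46 genes took 191473 to 215281 of them. The labelled cell type was not borne out by its markers: each of 8 germ cell genes had at most 8 reads over all libraries, with Pou5f1 and Dppa3 at 0. Of 9 blood cell genes, Kit, Gata2, Cpa3, Ptprc and Adgre1 had 8714 to 90862 reads and Ms4a2 269, while Cd3e had 0 and Csf1r had 4. Of 6 ovarian somatic genes, Foxl2 and Cyp19a1 had 0 reads and Amh had the most, 113. None of the 7 of these markers with enough reads to be tested passed the test between the groups, and their part in the levels below was not tested.

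The proteasome degrades proteins that carry chains of ubiquitin. Its 20S core is a barrel of stacked rings: the outer alpha rings gate the entrance, and the inner beta rings hold the catalytic sites of Psmb5, Psmb6 and Psmb7. The 19S particle caps the core, binds and deubiquitylates substrates and unfolds them with a ring of ATPases. Under interferon, and without it in many blood cells, Psmb8, Psmb9 and Psmb10 take the place of these subunits and form the immunoproteasome, known for making peptides for MHC class I. When proteasomes are inhibited, the transcription factor Nfe2l1 raises their genes together through antioxidant response elements.

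Upstream sequence is shown for 4 catalytic genes, a constitutive pair and an inducible pair, because their levels are compared below. It comes from RefSeq on GRCm38.p6, is written 5′ to 3′ on the strand of the gene, and ends at or before the base preceding the annotated start. Capitals mark a match to a motif: TGACNNNGC, the core of the antioxidant response element, in Psmb5 and Psmb6; TTCNNNGAA, the gamma-activated site of the interferon response, in Psmb8; and a CCAAT box, read on the other strand as ATTGG, in Psmb9. The stretches are chr14:54618023-54618245 on the minus strand, chr11:70525107-70525356 on the plus strand, chr17:34198088-34198117 on the plus strand and chr17:34187331-34187360 on the minus strand. For Psmb8 and Psmb9 only 30 bases are given, since exons of longer annotated transcripts cover the window. These stretches precede the RefSeq start but lie within the annotated span of their own gene, so they are not free of its transcripts.
Psmb5: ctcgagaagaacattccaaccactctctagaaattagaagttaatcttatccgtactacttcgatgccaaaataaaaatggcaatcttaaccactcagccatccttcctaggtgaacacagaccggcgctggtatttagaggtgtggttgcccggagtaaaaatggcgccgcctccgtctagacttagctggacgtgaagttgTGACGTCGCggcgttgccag
Psmb6: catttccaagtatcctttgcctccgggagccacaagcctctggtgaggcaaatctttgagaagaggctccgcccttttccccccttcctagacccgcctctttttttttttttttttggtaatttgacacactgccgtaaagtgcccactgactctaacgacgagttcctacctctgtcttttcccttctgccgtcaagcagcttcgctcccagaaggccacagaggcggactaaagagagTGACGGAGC
Psmb8: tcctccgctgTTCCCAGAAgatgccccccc
Psmb9: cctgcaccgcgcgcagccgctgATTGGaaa

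RefSeq promoters of 300 bases, from 250 before to 50 after the start, matched 39 of the 46 genes by symbol. Searched on both strands, TGACNNNGC was found in 6 of the 39 (15.4%), against 13.99% of 27025 genes with a promoter. These 6 are Psmb5, Psmb6, Psmc6, Psmd12, Psmd9 and Psme4. The GC box GGGCGG was in 23 (59.0%, against 38.2%) and CCAAT in 13 (33.3%, against 41.1%). TTCNNNGAA, which reads the same on both strands, was in Psmb8, Psmd2 and Psmg1 (7.69%, against 9.55%). The core of the interferon-stimulated response element, a pair of GAAA letters with 2 free bases between them, was in 5 (12.8%, against 3.99%): Psmb3, Psmd4, Psmd9, Psme1 and Psmg4. These are matches of letters only, and no test was made.

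Proteasome transcripts were abundant. In FPKM, the reads per kilobase of the exonic gene length and of the library total scaled as in CPM, the 46 genes had a median of 84.1, against 7.21 for all genes with at least 40 reads. All 46 lay above the median of those genes, from the 50.6th percentile for Psmd9 to the 98.6th for Psma5. In the order of mean FPKM, 26 of 45 neighbouring genes had library ranges that overlapped, so their order is not settled by these libraries.

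**Figure D1:**
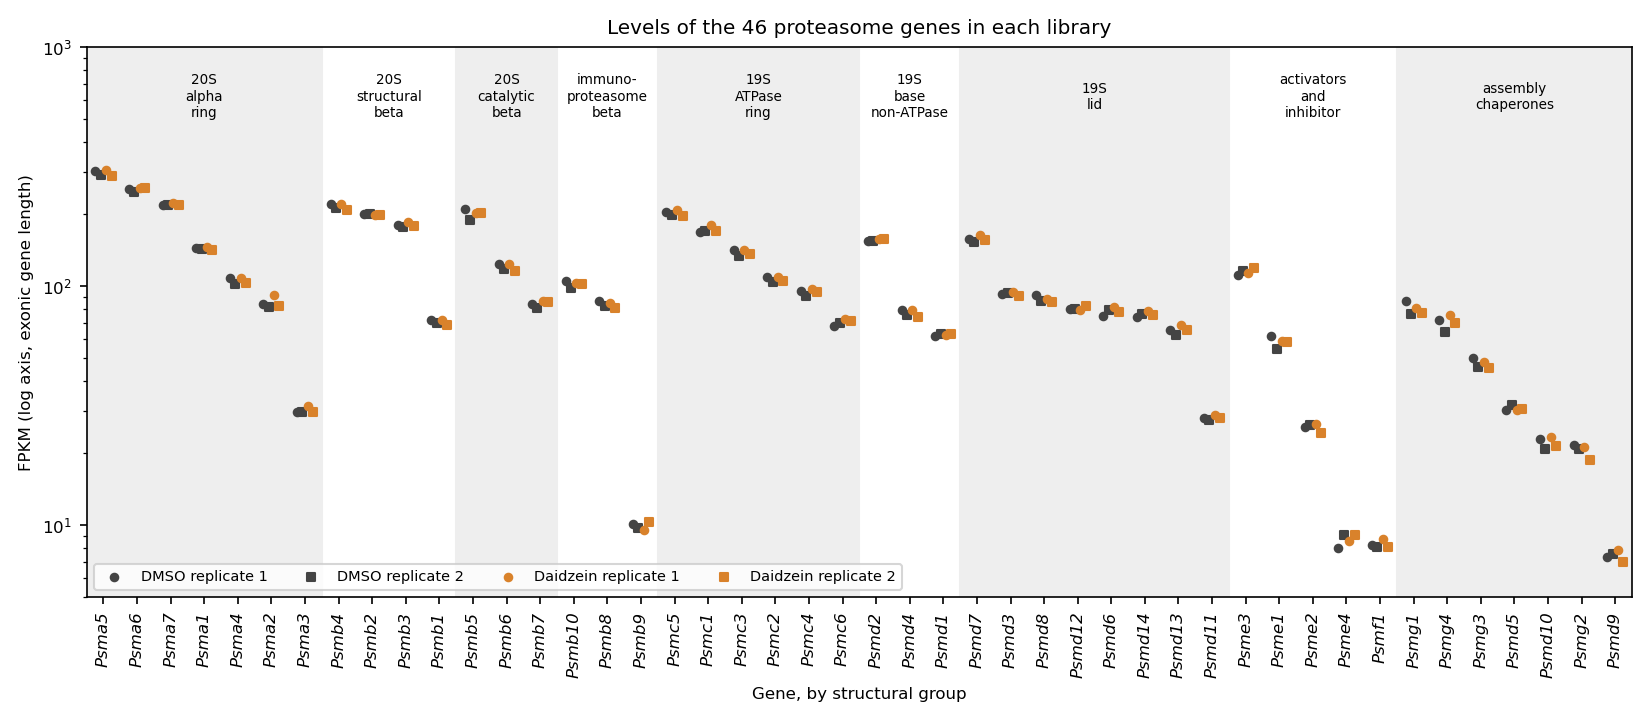
FPKM (log axis) of each of the 46 genes in the 4 libraries, grouped by structural role; circles are replicate 1 and squares replicate 2, dark grey for DMSO and orange for daidzein. Levels run from 7.45 for Psmd9 to 297 for Psma5, and the 4 libraries of a gene lie close together beside that range.

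The alpha genes covered a wide range of levels. Psma5 stood at 303 and 291 FPKM in the DMSO libraries and at 306 and 288 in the daidzein libraries. Psma6 and Psma7 followed, with means of 254 and 219. This order also turned per principal transcript, where Psma7 had 736, Psma1 352, Psma5 317 and Psma6 300.4. With the reads of near-identical copies added, as described below, Psma5 came to 369 on that scale, above Psma1. Psma3 was the lowest of the 7, at 29.7 and 29.7 with DMSO and 31.6 and 29.7 with daidzein, 9.85-fold below Psma5, and it was the lowest alpha gene per principal transcript as well, at 41.3. The assembled ring holds each alpha subunit in equal number, whereas these transcript levels did not overlap between Psma5 and Psma3 in any library. The size of that gap depends on the lengths: Psma5 had 27085 reads over 1321 exonic bases, and Psma3 had 8110 over 3894. Their principal transcripts measure 1239 and 2846 bases, so each scale divides Psma3 by the larger length.

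The structural beta subunits, which carry no active site in the mature core, had a median of 190 FPKM. Psmb4 had the highest mean, 215, and Psmb1 the lowest, 71.0, whereas per principal transcript Psmb3 was the highest, at 542 against 355 for Psmb4. Psmb2 stood at 200.2 and 200.2 FPKM with DMSO and at 199 and 198 with daidzein. Its SD between replicates, 0.748% of its mean CPM, was the smallest of the 46, beside 0.776% for Psmd1. Counting error alone gives 1.55% for Psmb2, so this rank is not read as a trait of the gene.

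Among the constitutive catalytic subunits, Psmb5, the chymotrypsin-like site, had 210 and 189 FPKM with DMSO and 202 and 202 with daidzein. Psmb6, the caspase-like site, had 123, 118, 124 and 116 FPKM in the same order. Psmb7, the trypsin-like site, had 84.3, 80.9, 86.6 and 85.5. On this scale Psmb5 was above Psmb6 and Psmb6 above Psmb7 in every library. Per length of the principal transcript, a scale described below, Psmb5 was instead the lowest of the 3 in every library. The means were 282 for Psmb6, 249 for Psmb7 and 200.3 for Psmb5. With the reads of a near-identical copy added, also described below, the Psmb5 mean came to 329, the highest of the 3. The order of these subunits is therefore not settled.

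All 3 inducible catalytic subunits were transcribed, at unequal levels. Psmb10 (chromosome 8, 105935735 to 105938444, minus strand) had 105, 98.4, 103 and 102 FPKM in the order DMSO 1, DMSO 2, daidzein 1, daidzein 2. Psmb8 (chromosome 17, 34197721 to 34201454, plus strand) had 86.7, 82.6, 85.2 and 81.3. Psmb9 (chromosome 17, 34181987 to 34187764, minus strand) had 10.1, 9.72, 9.50 and 10.3, the lowest of any 20S subunit that met the minimum. Per principal transcript Psmb8 was instead above Psmb10 in every library, with means of 174 and 133, and Psmb9 was again the lowest, at 26.8. These coordinates are those of the deposited table, on GRCm38. Psmb9 lies head to head with Tap1, the peptide transporter gene, with 225 bases between their RefSeq starts, and Tap1 had a similarly low level, 7.71 and 8.17 FPKM with DMSO and 7.59 and 7.62 with daidzein. Annotated exons of Psmb9 and Tap1 overlap on opposite strands over 212 bases. Reads there cannot be assigned without the strand setting of the counting, which no source used here states. The same limit holds for other proteasome genes. Exons of Psmb7, to which Psmb10 is compared below, overlap those of Nek6 (3533 reads) on the opposite strand over 405 bases, 11.8% of its exonic length. Those of Psmd13 overlap Sirt3 (2925 reads) on the opposite strand over 342 bases, 10.1%. In all, 5 proteasome genes, Psmb9 among them, overlapped a gene of at least 40 reads.

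Each inducible subunit takes the place of one constitutive subunit, so its level was divided by that of its counterpart in each library. Psmb9 stood at 0.0818 and 0.0823 of Psmb6 with DMSO and at 0.0765 and 0.0888 with daidzein. Psmb8 stood at 0.414 and 0.438 of Psmb5 with DMSO and at 0.422 and 0.404 with daidzein. Psmb10 stood at 1.25 and 1.22 of Psmb7 with DMSO and at 1.19 and 1.19 with daidzein. By exonic length the ratios of the 3 pairs did not overlap in any library, which did not hold on every scale, as described below. By an exact permutation test of the log2 ratios over libraries, 2 against 2 and two-sided, the p-values for daidzein against DMSO were 0.667 for Psmb8, 1.00 for Psmb9 and 0.333 for Psmb10, all 1.00 after adjustment over the 3 ratios. The smallest p such a design allows is 0.333.

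These ratios depend on the length used for each gene. The deposited exonic length joins the exons of all annotated transcripts and was 1.00 to 3.36 times the length of the principal GENCODE transcript, with a median of 1.67. Per principal transcript, Psmb10 was at 0.534 of Psmb7 in place of 1.21 as means of the 4 libraries, which turned the order of the pair. Psmb8 was at 0.871 of Psmb5 in place of 0.419, and Psmb9 at 0.0950 of Psmb6 in place of 0.0824. Psmb9 was thus the lowest of the 3 against its counterpart on both scales, and whether Psmb10 exceeds Psmb7 is not settled. Reads of other transcripts of a gene are counted too, so neither length is exact.

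**Figure D2:**
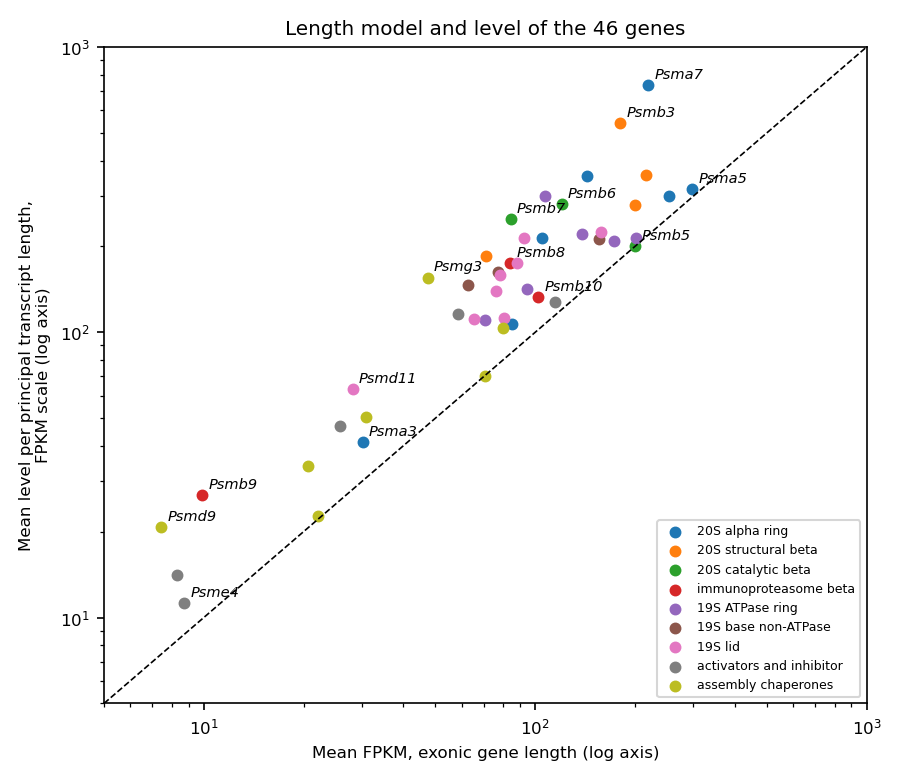
Mean FPKM of each gene by exonic gene length (x, log axis) against the same reads divided by the length of its principal transcript (y, log axis), coloured by structural role, with the line of equal values dashed. Psma7 moves from 219 to 736 and Psmb3 from 180.4 to 542, while Psmb5 stays at 200.3.

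Near-identical copies also touched these levels. Of the 46 genes, 8 had another annotated gene that matched their principal transcript at 95% identity or more over at least a share of 0.5. For Psmb5 this was the processed pseudogene Gm3375, 98.9% identical over 796 bases, with 7977 reads beside 12436 for Psmb5. For Psme2 it was Psme2b, 99.4% identical over 794 bases, with 5571 reads beside 3126. Reads of Psma5, Psma4 and Psmb3 copies made up 14.1%, 15.2% and 5.54% of the joint totals, and those of Psmc1, Psmd2 and Psmd11 less than 1%. Whether such reads came from the copy or from the parent gene cannot be told apart here. The levels of Psmb5 and Psme2 are therefore uncertain, and those of Psma5, Psma4 and Psmb3 to a lesser degree. With the reads of Gm3375 added, per principal transcript, Psmb5 came to 329, above Psmb6 at 282 and Psmb7 at 249, and Psmb8 stood at 0.530 of it. Across libraries that ratio ran from 0.507 to 0.549 and overlapped the ratio of Psmb10 to Psmb7, 0.525 to 0.550. Copies of shorter transcript forms could be missed where the principal transcript is long, as in Psma3 (2846 bases). The genes without a match are therefore not shown to be free of copies.

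**Figure D3:**
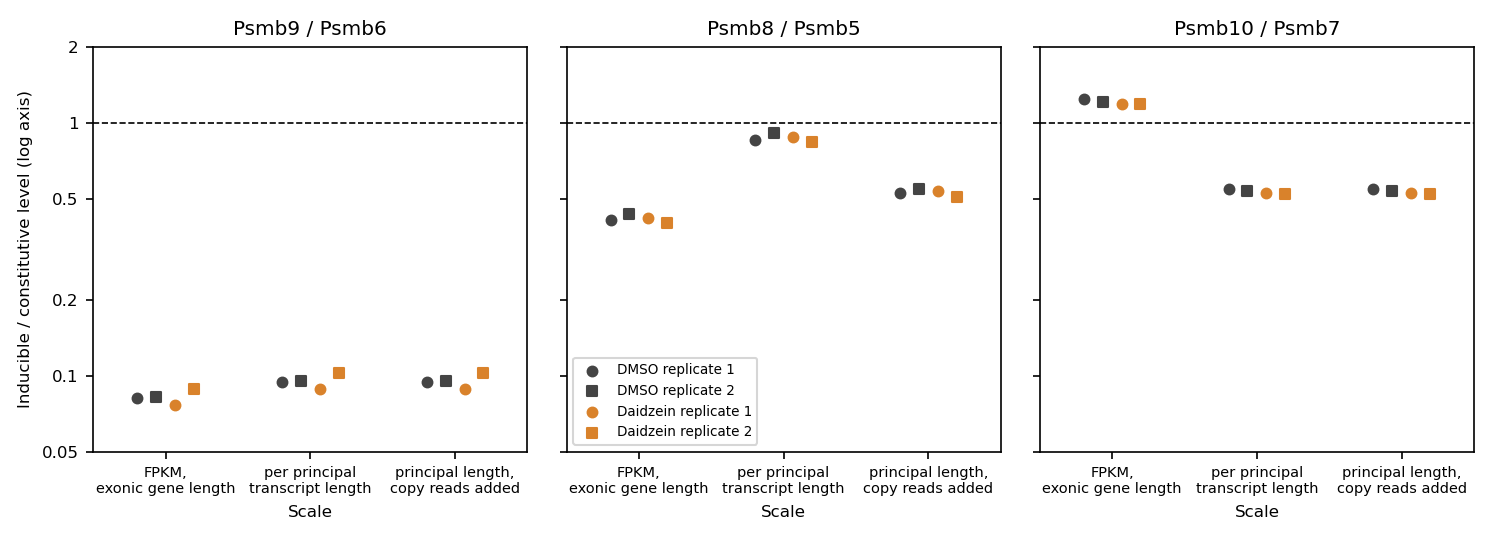
Level of Psmb9, Psmb8 and Psmb10 divided by that of the constitutive counterpart (log axis) in each library, on 3 scales; circles are replicate 1 and squares replicate 2, dark grey for DMSO and orange for daidzein, and the dashed line marks equal levels. Psmb10 lies above the line by exonic length and near 0.534 by principal transcript, and Psmb9 lies between 0.0765 and 0.103 throughout.

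In the 19S particle, the 6 ATPases had a median of 123 FPKM, from 70.6 for Psmc6 to 201 for Psmc5. Per principal transcript Psmc2 was the highest ATPase, at 300.8 against 213 for Psmc5, and Psmc6 was the lowest on both scales. The non-ATPase base subunits were Psmd2, a scaffold that docks ubiquitin shuttle proteins, at 156 FPKM, Psmd4, a ubiquitin receptor at 77.3, and Psmd1 at 62.6. The 8 lid subunits ran from 28.2 for Psmd11 to 158 for Psmd7, with Psmd14, the deubiquitylase of the lid, at 76.2. Relative to their mean, the levels of the 17 genes of the 19S particle had an SD of 44.9%, and those of the 14 constitutive core genes one of 49.4%. Per principal transcript these were 33.9% and 58.4%, so levels varied among the subunits of each particle on both scales.

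Among activators, Psme3, the nuclear PA28 gamma, had 112 and 116 FPKM with DMSO and 114 and 119 with daidzein. Psme1 and Psme2, the interferon-inducible PA28 alpha and beta, had means of 58.5 and 25.7. With the reads of Psme2b added and per principal transcript, Psme2 came to 131, against 116 for Psme1 on the same length, so their order turned as well. Psme4, the PA200 activator, had a mean of 8.71 FPKM, with 67.3 and 76.4 CPM in the DMSO libraries and 72.6 and 75.8 CPM with daidzein. Psmf1, the inhibitor PI31, was as low, with a mean of 8.31. Among the 7 assembly chaperones, Psmg1 was the highest, at 80.2, and Psmd9 the lowest, at 7.45. Per principal transcript Psmg3, at 155, was above Psmg1, at 103, and Psmd9 was again the lowest.

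No proteasome gene passed the test between daidzein and DMSO. Of the 46 genes, 0 rose and 0 fell in edgeR's quasi-likelihood fit, with p-values adjusted by Benjamini-Hochberg over 11700 genes, where 2 genes (0.0171%) passed. At an unadjusted p under 0.05 there were also 0 of the 46, against 2.91% of all genes tested. DESeq2 and limma on log2(FPKM + 1) called 0 of them too. All 46 adjusted p-values were 1.00, and the smallest unadjusted edgeR p was 0.201, for Psma2. As these are bulk libraries, fewer cells of a type and less RNA per cell cannot be told apart.

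The estimated folds were all close to 1. All 46 of the 95% intervals of the fold, each for its own gene, included 1, and together they reached from 0.828 for Psmg2 to 1.22 for Psmg4. Psmd2 had the narrowest interval, a fold of 1.02 (0.944 to 1.09), and Psmd10 the widest, 1.02 (0.891 to 1.17). The median absolute log2 difference over the 46 genes was 0.03, against 0.06 over all genes tested. The 46 genes were also more abundant, with a median of 84.1 FPKM against 7.21 for all genes with at least 40 reads. The part of level in the smaller difference was not tested.

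**Figure D4:**
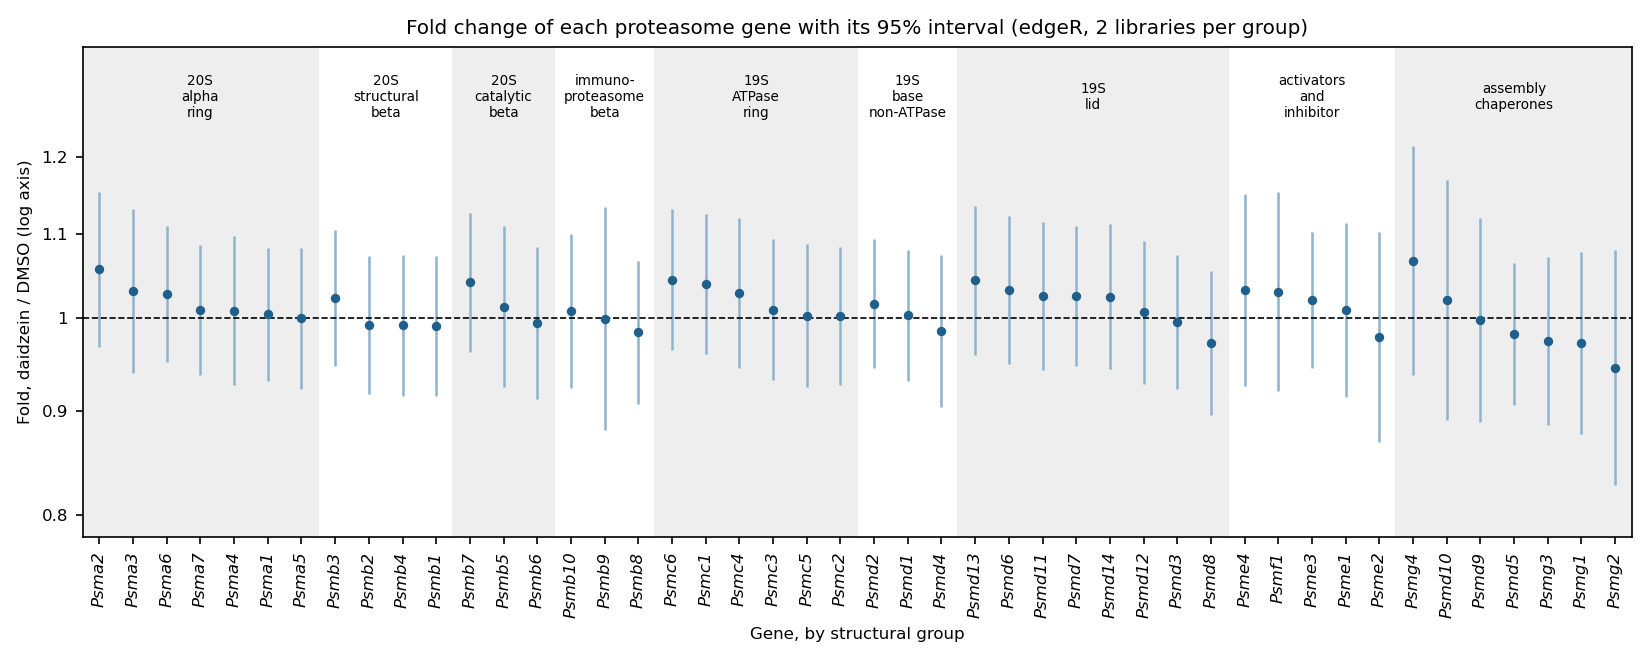
Fold of daidzein over DMSO (points, log axis) with its 95% interval (bars) from edgeR, for each of the 46 genes, grouped by structural role; the dashed line marks no difference. Every bar crosses the line, and all lie between 0.828 and 1.22.

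The genes with the smallest p-values showed how small the differences were. Psma2, of the alpha ring, had 309 and 298 CPM with DMSO and 341 and 301 with daidzein, after scaling by TMM. Only the first daidzein library stood out, and the groups overlapped. The fold was 1.06 (0.968 to 1.15), and the log2 difference of 0.08 was -0.01 without Daidzein replicate 1. Psmc6, an ATPase, had 238 and 245 CPM with DMSO and 257 and 248 with daidzein, a fold of 1.04 (0.965 to 1.13). Psmb7 had 290 and 276 against 298 and 291 CPM, a fold of 1.04 (0.963 to 1.13). In Psmc6 and Psmb7 both daidzein libraries lay above both DMSO libraries. Psmd13, of the lid, had 223 and 210 against 233 and 219.5 CPM, which overlap, with an edgeR unadjusted p of 0.300. Psmb7 and Psmd13 each share exonic bases with a gene on the opposite strand, as described above, so part of their reads cannot be assigned with certainty.

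Few of the 46 genes had groups that did not overlap. The daidzein libraries lay above both DMSO libraries in 5 of the 46 (Psma6, Psmb7, Psmc1, Psmc6 and Psmd2) and below both in 0. Over all genes tested the shares were 14.7% above and 15.0% below. For the 46 this is 10.9% in either direction, against 29.7%. The 46 genes share the same libraries, and most differed in the same direction between the replicate numbers, as described below. The part of that shared difference in the 10.9% was not tested.

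By structural role, each group of subunits had 0 genes that rose and 0 that fell in the edgeR test of single genes. All 6 ATPases were higher with daidzein, with a median log2 difference of 0.03, as were 6 of 8 lid genes (median 0.04) and 6 of 7 alpha genes (median 0.01). The assembly chaperones were lower in 5 of 7 (median -0.03), with Psmg2 at -0.08 and Psmg4 at 0.09. The structural beta genes were lower in 3 of 4 (median -0.01). Psmb8, Psmb9 and Psmb10 had log2 differences from -0.02 to 0.01, and the 5 activators and inhibitor from -0.03 to 0.05. In all, 30 of the 46 were higher (65.2%, against 48.7% of all genes tested), with a median log2 difference of 0.01 against -0.0027.

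The majority changed when a library was left out, which also leaves the replicate numbers unequal between the groups. Without Daidzein replicate 1, 16 of the 46 were higher and 30 lower, with a median of -0.01. Without Daidzein replicate 2, 42 were higher and 4 lower, with a median of 0.04. Leaving out Control replicate 1 gave 38 higher and 8 lower, and leaving out Control replicate 2 gave 23 and 23. With equal numbers kept, the median log2 difference over the 46 genes was 0.03 between the libraries numbered 1 and 0.0046 between those numbered 2, and fitting a replicate block gave 30 higher and 16 lower.

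Summed FPKM differed little between the groups. The 14 constitutive core genes came to 2230 and 2158 FPKM with DMSO and to 2254 and 2177 with daidzein, and the 17 genes of the 19S particle to 1748 and 1720 against 1791 and 1729. The groups overlapped in both sums. Over the 9 structural groups, the ratio of daidzein to DMSO lay between 0.997 for the inducible catalytic subunits and 1.02 for the ATPases. With 2 libraries a group, an exact permutation test of these sums cannot give a p below 0.333, so none is read from them. The sum of the activators and inhibitor was the only one of the 9 whose libraries did not overlap, at 215 and 214 against 217 and 218. In CPM, 0 of its 5 genes had groups that did not overlap, against 29.7% of all genes tested.

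Most proteasome genes also differed in the same direction between the replicate numbers in both groups. All 46 genes share the same 4 libraries, so with 2 replicate pairs their counts describe these libraries and are not separate observations. In 33 of the 46 genes (71.7%), replicate 1 was higher than replicate 2 in both groups, against 29.3% of all genes tested. This held for all 7 alpha genes, all 4 structural beta genes and Psmb5, Psmb6 and Psmb7. Replicate 2 was higher in both groups for 3 genes, named here after their values were seen: Psmd1, a base scaffold, and the activators Psme3 and Psme4. In the other 10 the order differed between the groups. The median log2 difference of replicate 1 minus replicate 2 was 0.05 with DMSO and 0.08 with daidzein, whereas over all genes tested it was -0.00054 and -0.0012.

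**Figure D5:**
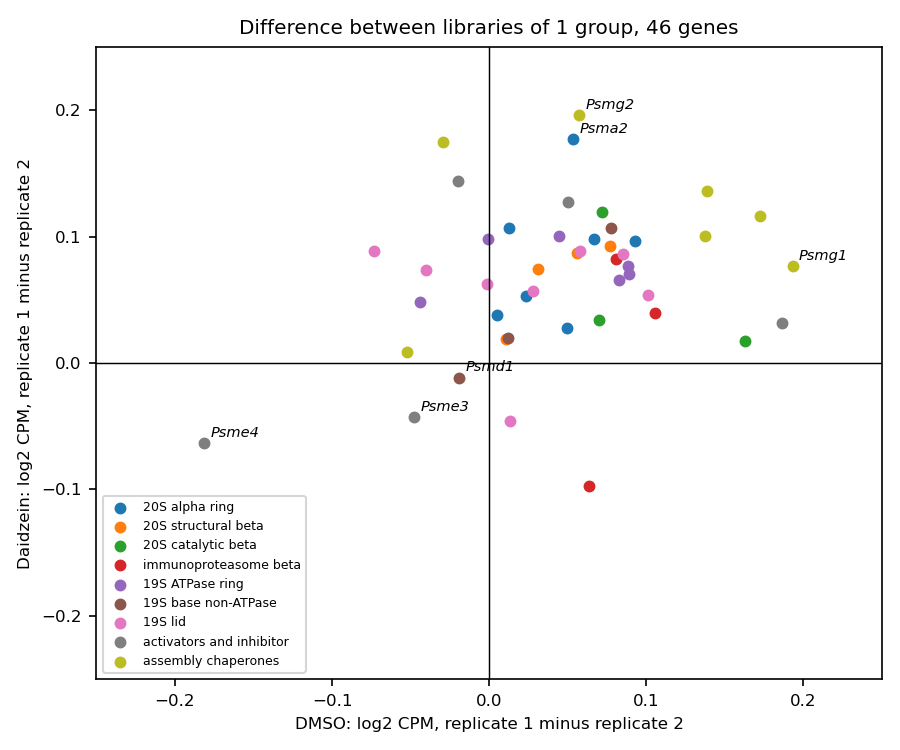
Log2 difference of replicate 1 minus replicate 2 in the DMSO group (x) and in the daidzein group (y) for each of the 46 genes, coloured by structural role, with lines at 0. There are 33 genes at the upper right, higher in replicate 1 in both groups, and 3 in the lower left.

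The mean replicate difference was larger than the daidzein difference in 38 of the 46 genes, against 57.2% of all genes tested. Its median size was 0.07 on the log2 scale, against 0.03 for daidzein. The median spread between replicates was a CV of 3.96%, where counting error alone gives 1.58%, from 0.748% for Psmb2 to 7.20% for Psmg1. Across all genes tested, the replicate difference had a Spearman correlation of -0.31 with exonic length and 0.21 with FPKM, as a description over genes that share libraries. The proteasome genes had a median exonic length of 2814 bases, against 4172.5 for all genes tested, and the part of length and level in the replicate difference was not tested. The labels do not say what the replicate numbers stand for.

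Proteins that build, regulate or feed the proteasome but lie outside the symbol rule were read from a list of 30, of which 29 were tested. None passed the edgeR test after adjustment, with 18 higher and 11 lower with daidzein. Akirin2 and Rps27a had the smallest p of the 29 and were the only 2 with an unadjusted edgeR p under 0.05, against 2.91% of all genes tested. The groups did not overlap in 27.6% of the 29, against 29.7% of all genes tested. Near-identical copies were not sought for this list. Akirin2, which brings proteasomes into the nucleus, had 28.9 and 32.2 CPM with DMSO and 35.1 and 35.1 with daidzein, so the groups did not overlap. Its fold was 1.15 (1.01 to 1.31), with an edgeR unadjusted p of 0.0416 and an adjusted p of 1.00. Rps27a, which encodes ubiquitin fused to a ribosomal protein, had 71.2 and 67.7 CPM with DMSO and 59.5 and 64.7 with daidzein. Its fold was 0.895 (0.804 to 0.996), with an edgeR unadjusted p of 0.0424 and an adjusted p of 1.00.

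Of the shuttle receptors that deliver ubiquitylated proteins, Rad23b had a fold of 1.04 and Ubqln1 one of 0.949. Txnl1, a thioredoxin that binds the proteasome, had a fold of 1.06. Pomp, the maturation factor of the core, had a fold of 1.01 (0.926 to 1.09). Nfe2l1, the regulator of proteasome genes, had 0.981 (0.903 to 1.07), and Adrm1, a ubiquitin receptor of the 19S particle, 1.01 (0.923 to 1.11). All of these intervals that are given included 1, and none of the 29 genes passed.

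The 8 genes of peptide presentation and its regulators had 4 higher and 4 lower with daidzein, and 0 passed. Tap1 had a fold of 0.958 (0.851 to 1.08), and Irf1, an interferon-responsive regulator of Psmb9, had one of 0.976. B2m, the light chain of MHC class I, was abundant at a mean of 461 FPKM, above every proteasome gene on that scale, and had a fold of 1.03.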

How the data were processed

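RNA-seq of 2 Control (DMSO) and 2 Daidzein libraries was used. The read counts per gene are the authors' deposited values, as are the FPKM values in the same table; they equal count per exonic length and library total within 0.01 for 100% of 65326 values with a read. Tools in the submitters' processing notes are HISAT2 2.0.1 and HTSeq 0.6.1, besides DESeq2, and the build there is mm9, all with no settings, while the deposited gene coordinates are those of GRCm38: 99.61% of 55141 genes matched to GENCODE M21 had the same start.

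Counts were tested with edgeR 4.0.16 (quasi-likelihood, TMM, filterByExpr, R 4.3.3), daidzein against DMSO without a replicate block, with Benjamini-Hochberg adjustment over 11700 genes. DESeq2 1.42.0, limma 3.58.1 on log2(FPKM + 1), other filters and scalings, a replicate block and leaving out each library were alternatives. The scripts were tested on simulated data. Ratios and sums were compared with exact permutation tests. Near-identical copies were sought with blastn 2.17.0 at 95% identity over at least a share of 0.5 of the principal transcript. This search and the principal transcript length were chosen after seeing the data. Where several transcripts of a gene ranked equally as principal, the longest was taken.

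The rule for named genes took the catalytic subunits, activators and inhibitor, the highest and lowest gene of each structural group, the 4 smallest p-values, the widest and narrowest intervals, up to 6 partners with the smallest p plus Pomp, Nfe2l1 and Adrm1, and Tap1, Irf1 and B2m; a few genes that the rule or lists take are not reported here. The genes and lists were chosen with earlier results of these data known. Fold intervals come from the edgeR fit and include the spread between libraries; the limit on a count of 0 covers counting error only. Amino acid sequences were not used here.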

Additional observations from a re-analysis of the deposited data

How the results depend on the processing

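None of the 46 proteasome genes passed the threshold under any of 12 alternatives (other tools, filters and scalings, a replicate block, and leaving out each library), and their median log2 difference lay between -0.01 and 0.04 when a library was left out. The count over all genes, 2 in edgeR, was 1 with DESeq2, 11 with no filter on low counts, 1 with a filter of at least 5 CPM in 2 libraries, 0 with limma on log2(FPKM + 1), 0 with limma on log2(FPKM + 0.1), and 4 to 17 when a library was left out, where the lone library is assumed to vary like the other group. A replicate block made it 27 (6 rose, 21 fell), and the smallest adjusted p among the proteasome genes was 0.748, for Psma2 (unadjusted p 0.0408, edgeR). The labels name no batch behind the numbers, and deviations of same-numbered libraries correlated at 0.11 over all genes tested and 0.27 over the proteasome genes, with 2 pairs, too few to pair the libraries. Of 468 recomputed values of 39 named genes, 468 stayed on the same side of the threshold, and 41 changed sign with no call.

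Level ratios moved with the gene length: per principal transcript, Psmb8 to Psmb5 was 0.871, Psmb9 to Psmb6 0.0950 and Psmb10 to Psmb7 0.534, and with copies added Psmb8 to Psmb5 was 0.530. The 95% edgeR intervals of the proteasome folds, which include the spread between libraries, lay between 0.828 and 1.22. With 2 libraries a group, single values cannot reach an exact permutation p below 0.333.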
